A study of Mus musculus with 30 samples.

Results

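HE2 cells that lack the DNA-binding domain of Sp1 were compared with WT HE2 cells, across all genes of the deposited expression table. Used for this were 4 of the 30 RNA sequencing samples of the series, namely HE2_Sp1_deltaDBD replicates 1 and 2 (Sp1ΔDBD/ΔDBD below) and HE2_WT replicates 1 and 2, chosen by their labels. The table lists 14685 genes, of which 14525 were above 1 FPKM in at least 1 sample of the series and were tested. The series holds 5 cell populations (ESC, Flk1, HE1, HE2 and progenitor) in 3 genotypes (WT, Sp1_deltaDBD and Sp3KO), with 2 replicates each. All samples came from the mouse embryonic stem cell line E14, differentiated in culture. HE2 cells were sorted on the second day of blast culture as KIT+ CD41+ Tie2+ cells, next to HE1 cells (KIT+ CD41- Tie2+) and progenitors (KIT+ CD41+ Tie2-). The labels give replicate numbers and do not say which samples shared a culture. Both alleles of Sp1 carry the deletion in the mutant, which still makes a truncated protein and is therefore a hypomorph rather than a null. Each genotype is represented by 1 cell line, so the mutation and other differences between the lines cannot be told apart, and the p-values below measure the spread between duplicates of these lines. In bulk samples, fewer cells of a type and less RNA per cell cannot be told apart either.

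Sp1 is a ubiquitous zinc finger transcription factor that binds GC-rich elements, the GC boxes, found close to the start sites of many housekeeping and cell type-specific genes. Its closest relative, Sp3, recognises the same elements, and Sp4 and the Klf factors carry related zinc fingers. Hemogenic endothelium is the endothelial tissue from which the first blood cells arise. Cells of the HE2 stage have begun to carry the blood antigen CD41 while still carrying the endothelial receptor Tie2.

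The values are FPKM, fragments scaled to transcript length and library size, quantile normalised by the authors across all samples. Read counts are not part of them, and the depth is unknown. Changes are given as differences between mean log2(FPKM + 0.1), which understate the change of weakly expressed genes. A gene is said to have risen or fallen where limma, fitted to all 30 samples, gave a Benjamini-Hochberg adjusted p under 0.05. By exact permutation, 2 against 2 samples cannot give a two-sided p below 0.333 for any single gene. Across genes, the correlation of log2 values was 0.975 between the WT replicates and 0.968 between the Sp1ΔDBD/ΔDBD replicates, and between 0.945 and 0.963 for the 4 pairs of a WT and a mutant sample.

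The targeted gene was examined first. Sp1 (chromosome 15 of GRCm38, 102406143 to 102436404) had 33.6 and 26.3 FPKM in the WT samples and 17.2 and 23.5 FPKM in the mutant samples. Both mutant samples were thus below both WT samples, with a log2 fold change of -0.56 (SE 0.17, limma adjusted p = 0.0404). This call was not made without WT replicate 1 (limma adjusted p = 0.312) or without Sp1ΔDBD/ΔDBD replicate 1 (0.269). A value for the whole gene does not show which exons were read, so it does not test the deletion itself. The antigens used for sorting did not pass the test in either direction (0 of 3 genes by limma, and 0 at an unadjusted p under 0.05). Kit, the receptor of stem cell factor, had 36.9 and 58.5 FPKM in WT and 26.2 and 50.3 FPKM in mutant cells. Itga2b, which encodes CD41, had 84.6 and 147 against 96.99 and 115 FPKM, and Tek, which encodes Tie2, 85.1 and 90.2 against 85.6 and 72.9 FPKM. The genotypes overlapped for each of these genes.

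In Sp1ΔDBD/ΔDBD HE2 cells 683 genes rose, 4.70% of the genes tested, and 722 genes fell, 4.97%. At an unadjusted p under 0.05 there were 3446 genes. In each of the 1405 called genes both mutant samples lay beyond both WT samples, which was the case for 45.7% of all genes tested. The falls were larger than the rises. The median log2 fold change was -1.21 among the genes that fell and 0.82 among those that rose, while the median over all genes tested was 0.04. A change by more than 2 on the log2 scale, upwards, was found for 77 of the genes that rose, and one of the same size downwards for 159 of those that fell. By a fold change above 2, the threshold of the study, together with a minimum of 3 FPKM for the larger group mean that was added here, 194 genes (1.32% of the genes listed) were up-regulated and 394 (2.68%) down-regulated, without a test. With the fold change alone there were 607 and 816. The 588 genes over the minimum were 978 without Sp1ΔDBD/ΔDBD replicate 1.

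These numbers rest on the spread estimated over all 15 groups, and on single samples. Without WT replicate 1, limma called 308 genes higher and 385 lower, and without Sp1ΔDBD/ΔDBD replicate 2 it called 223 and 310. In each of the 4 fits that left out 1 HE2 sample, 119 of the genes that rose and 204 of those that fell were called again. When the 6 HE2 samples of the 3 genotypes were fitted alone, limma called 50 genes higher and 125 lower, and with the 4 samples alone it called 0 genes, with 813 higher and 944 lower at an unadjusted p under 0.05. Unless said otherwise, each gene described below with its values was also called in each of the 4 fits that left out 1 sample.

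**Figure D1:**
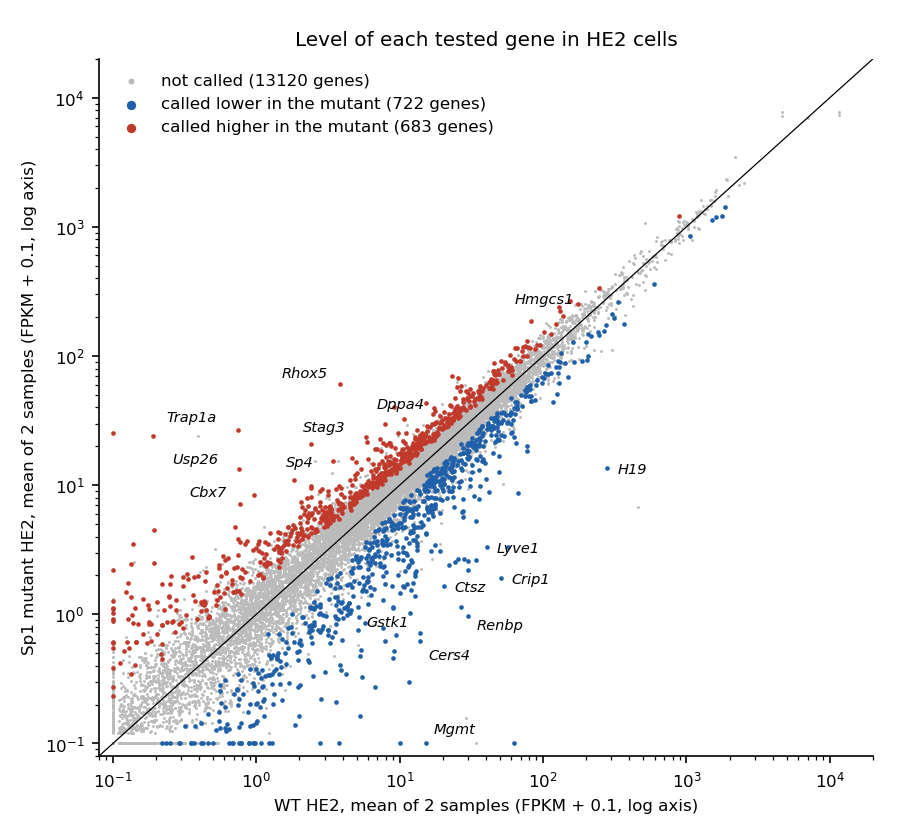
Mean FPKM + 0.1 of the 2 WT samples (horizontal, log axis) and of the 2 Sp1ΔDBD/ΔDBD samples (vertical, log axis) of HE2 cells, with 1 point for each of the 14525 genes tested. The 683 genes called higher by limma are red and the 722 called lower blue, and the points of Rhox5, Usp26 and Cbx7 lie far above the diagonal, those of H19, Renbp and Cers4 far below it.

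Many of the genes with the largest falls were close to silent in the mutant. By the rule used here, under 0.5 FPKM in both samples of a genotype and above 3 FPKM in both of the other, 15 genes were off in Sp1ΔDBD/ΔDBD cells and 3 in WT cells. The former include Gm5148 and Eif3j1 and the latter Eif3j2 and Atp6v0c-ps2, which are uncertain, as described below. Mgmt (chromosome 7, 136894614 to 137130266), which encodes the methyltransferase that removes alkyl groups from guanine in DNA, had 16.5 and 13.7 FPKM in WT HE2 cells. In both mutant samples it was at the lowest value of the column (0.000930 and 0.00217 FPKM), a value that it shared with 934 and 1024 genes. Tmem159, a gene of lipid droplet formation, had 9.31 and 10.5 FPKM in WT cells and was likewise at the lowest value in both mutant samples. Against such values no fold change can be given, and the limma adjusted p was 1.57e-10 for Mgmt and 4.91e-11 for Tmem159. Prelid2 was also at the lowest value in both mutant samples and had 4.22 and 3.09 FPKM in WT cells.

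Renbp, the renin-binding protein that acts as an N-acetylglucosamine epimerase, had 26.3 and 33.9 FPKM in WT and 0.713 and 1.03 FPKM in mutant cells (log2 fold change -4.96, SE 0.40, limma adjusted p = 2.20e-07). Cers4, a ceramide synthase, had 13.1 and 14.3 FPKM in WT and 0.675 and 0.362 FPKM in mutant cells (log2 fold change -4.52, SE 0.27, limma adjusted p = 4.82e-09). For both genes all mutant values were far below all WT values, and the duplicates lay close together. Fah, the last enzyme of tyrosine breakdown, had 6.18 and 4.13 FPKM in WT cells, 0.127 FPKM in mutant replicate 2 and the lowest value of the column in mutant replicate 1. Fggy, a carbohydrate kinase, had 8.61 and 9.02 against 0.443 and 0.270 FPKM (log2 fold change -4.31, SE 0.30, limma adjusted p = 1.95e-08). Gstk1, the glutathione transferase of mitochondria and peroxisomes, had 14.7 and 13.0 against 0.855 and 0.377 FPKM. The genotypes did not overlap in any of these genes. The same held for Smim20, a factor of cytochrome oxidase assembly with 10.8 and 12.1 FPKM in WT cells, Top1mt, the mitochondrial topoisomerase with 3.55 and 3.41 FPKM, and Selenom, a selenoprotein with 7.38 and 5.86 FPKM. Each of these had at most 0.393 FPKM in the mutant, and the lowest value of the column in mutant replicate 2.

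H19, the imprinted long non-coding RNA that is transcribed from the maternal chromosome, was the most abundant RNA among the 15 largest falls. It had 309 and 249 FPKM in WT and 18.2 and 8.99 FPKM in Sp1ΔDBD/ΔDBD HE2 cells, a log2 fold change of -4.43 (SE 0.60, limma adjusted p = 8.61e-05). Of 34 tested genes on a list of imprinted genes, 1 other was called, Copg2, which rose from 25.9 and 26.2 to 47.0 and 60.8 FPKM (log2 fold change 1.03, SE 0.14, limma adjusted p = 8.61e-05). The rise and the fall were each 2.94% of the list, against 4.70% and 4.97% of all genes tested. The median log2 fold change of the list was -0.12.

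Also off in the mutant were Apoc1, an apolipoprotein, with 6.35 and 4.07 FPKM in WT against 0.378 and 0.374 FPKM in mutant cells, and Trim21, the cytosolic antibody receptor, with 4.03 and 3.51 against 0.370 and 0.168 FPKM. C1qtnf6 fell from 5.05 and 5.73 to 0.202 and 0.247 FPKM, Nudt7, a coenzyme A hydrolase of peroxisomes, from 4.03 and 4.17 to 0.365 and 0.121 FPKM, and Pter from 6.18 and 4.33 to 0.483 and 0.380 FPKM. The limma adjusted p of these 5 genes was between 4.62e-07 and 0.000823. Crip1, a small LIM domain protein, fell from 66.7 and 34.3 to 2.67 and 0.949 FPKM (limma adjusted p = 0.00322), but was not called without Sp1ΔDBD/ΔDBD replicate 2 (0.0583).

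The largest rises included genes that are usually active in germ cells or placenta and that lie on the X chromosome. Rhox5 (chromosome X, 37804842 to 37808876), a homeobox gene of the reproductive tract and placenta, had 3.90 and 3.52 FPKM in WT and 68.6 and 52.8 FPKM in mutant cells (log2 fold change 3.98, SE 0.29, limma adjusted p = 4.35e-08). Usp26, a deubiquitinase of the testis, rose from 1.11 and 0.209 to 12.4 and 14.3 FPKM (log2 fold change 4.46, SE 0.50, limma adjusted p = 1.11e-05). Trap1a, a tumour antigen gene that is otherwise active in placenta, rose from 1.03 and 0.251 to 42.4 and 11.01 FPKM. Its duplicates differed by several fold in both genotypes, but the genotypes did not overlap. Of the 514 tested genes of the X chromosome 37 rose and 21 fell, 7.20% and 4.09%, against 4.70% and 4.97% of all genes tested.

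Among the autosomal genes, Cbx7 (chromosome 15, 79915807 to 79971119), a chromobox subunit of Polycomb repressive complex 1, rose from 0.594 and 0.736 to 7.10 and 7.09 FPKM (log2 fold change 3.24, SE 0.21, limma adjusted p = 1.34e-08). Stag3, the cohesin subunit of meiosis, rose from 1.24 and 3.38 to 13.8 and 27.3 FPKM (log2 fold change 3.18, SE 0.44, limma adjusted p = 0.000125). Dgat2, which makes triglycerides, rose from 0.532 and 0.765 to 3.85 and 3.62 FPKM, and Plscr2, a phospholipid scramblase, from 0.625 and 0.721 to 3.71 and 3.30 FPKM. Both duplicates of the mutant were above both of WT in each of these genes. Tmem42, 4930447C04Rik and the olfactory receptor gene Olfr178 also rose, to between 2.63 and 4.77 FPKM in the mutant samples, from at most 0.815 FPKM in WT. Olfr178 matches another gene, Olfr180, over 54.5% of its transcript (91.2% identity). Cpa3, the carboxypeptidase of mast cells, rose from 0.335 and 1.20 to 2.37 and 4.76 FPKM (limma adjusted p = 0.0100), but was not called without WT replicate 1 (0.167) or without Sp1ΔDBD/ΔDBD replicate 2 (0.146).

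**Figure D2:**
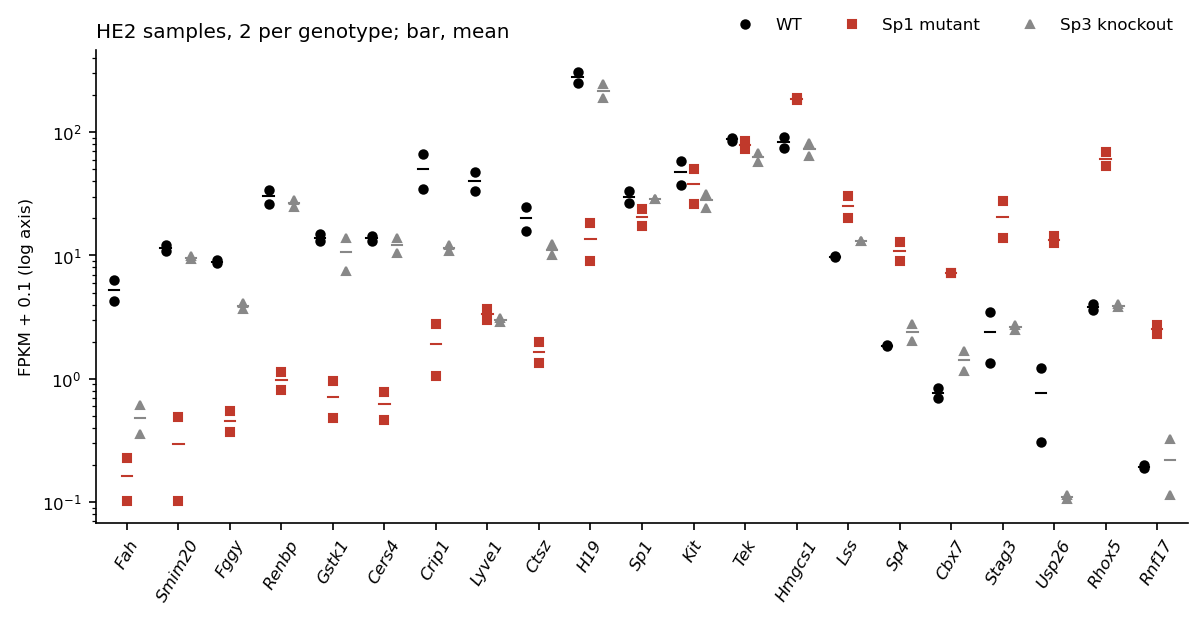
FPKM + 0.1 on a log axis of selected genes in each HE2 sample, with WT as black circles, Sp1ΔDBD/ΔDBD as red squares and the Sp3 knockout as grey triangles, 2 samples per genotype, and a bar at each mean. Red and black points are apart for each gene shown except Kit and Tek, and the grey points of Renbp, Cers4, Gstk1 and Rhox5 lie at the level of WT or near it, those of Lyve1 at the level of the Sp1 mutant.

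A few of the largest changes involved genes with a near-identical copy and are uncertain. Eif3j2 rose from the lowest value in both WT samples to 24.1 and 26.0 FPKM, while Eif3j1, whose transcript it matches at 99.4% of bases, had 31.0 and 16.9 FPKM in WT and 0.315 and 0.485 FPKM in mutant cells and was off there without passing the test (limma adjusted p = 0.0716). Both copies encode the same subunit of a translation initiation factor. The sum of the copies was 31.0 and 16.9 FPKM in WT and 24.4 and 26.5 FPKM in mutant cells, so that the genotypes overlapped. Likewise Atp6v0c, a proton pump subunit, went from 28.3 and 24.8 to 1.33 and 0.764 FPKM and its processed pseudogene Atp6v0c-ps2 (99.8% identical) from 0.0968 and 0.0845 to 22.1 and 25.8 FPKM. The sum of this pair was 28.3 and 24.9 FPKM in WT and 23.4 and 26.5 FPKM in mutant cells. Gm5148, off in the mutant, was below 0.5 FPKM in 5 of the 30 samples of the series and between 42.7 and 102 FPKM in the other 25. Eif3j2 and Gm5148 were called in no fit that left out 1 sample (limma adjusted p up to 0.146 and 0.140, both without Sp1ΔDBD/ΔDBD replicate 2). Atp6v0c lost its call without WT replicate 1 (0.0718) or Sp1ΔDBD/ΔDBD replicate 2 (0.104), and Atp6v0c-ps2 without WT replicate 1 (0.0725), WT replicate 2 (0.0606) or Sp1ΔDBD/ΔDBD replicate 2 (0.0929).

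The promoters of genes that moved were read for the motif of the Sp factors. Shown are 300-base windows, from 250 bases before to 50 after the start site, of 2 genes with large falls (Mgmt and Renbp) and 2 that rose (Sp4 and Lss), with each GC box (GGGCGG on either strand) in capitals. They are reference sequences from RefSeq (GRCm38.p6), 5′ to 3′ on the strand of the gene, at chr7:136894336-136894635 (plus strand), chrX:73930801-73931100 (minus), chr12:118301391-118301690 (minus) and chr10:76531355-76531654 (plus), in this order.
Mgmt: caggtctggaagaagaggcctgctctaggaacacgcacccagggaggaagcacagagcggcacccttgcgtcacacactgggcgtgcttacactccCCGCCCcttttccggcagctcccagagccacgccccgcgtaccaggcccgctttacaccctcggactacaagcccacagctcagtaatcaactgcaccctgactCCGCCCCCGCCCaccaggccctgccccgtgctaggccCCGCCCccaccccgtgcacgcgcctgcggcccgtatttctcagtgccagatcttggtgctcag
Renbp: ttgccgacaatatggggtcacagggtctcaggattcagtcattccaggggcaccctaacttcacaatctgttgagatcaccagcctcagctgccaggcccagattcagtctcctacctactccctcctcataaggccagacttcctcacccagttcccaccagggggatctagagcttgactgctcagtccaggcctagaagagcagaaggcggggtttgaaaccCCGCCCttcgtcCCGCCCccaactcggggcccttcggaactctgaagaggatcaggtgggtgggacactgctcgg
Sp4: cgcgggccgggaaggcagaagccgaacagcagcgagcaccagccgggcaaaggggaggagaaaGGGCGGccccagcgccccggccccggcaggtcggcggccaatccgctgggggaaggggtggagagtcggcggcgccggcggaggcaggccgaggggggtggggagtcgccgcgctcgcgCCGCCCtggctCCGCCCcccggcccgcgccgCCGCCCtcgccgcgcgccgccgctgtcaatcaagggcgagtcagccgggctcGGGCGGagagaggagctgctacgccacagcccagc
Lss: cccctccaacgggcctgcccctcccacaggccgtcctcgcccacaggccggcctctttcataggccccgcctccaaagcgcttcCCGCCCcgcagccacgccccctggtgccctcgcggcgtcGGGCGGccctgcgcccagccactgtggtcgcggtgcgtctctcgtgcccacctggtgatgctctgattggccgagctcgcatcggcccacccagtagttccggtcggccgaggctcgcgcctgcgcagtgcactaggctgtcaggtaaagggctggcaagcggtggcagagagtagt

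The first of the RefSeq start sites of Mgmt was used. These windows held 4, 2, 5 and 2 GC boxes, and were chosen to show the motif. Other windows of genes with large changes held 0 GC boxes, among them those of Rhox5, Usp26 and Selenom and the second start sites of Mgmt and Fggy. The Rhox5 window (chrX:37754358-37754657, from RefSeq) lies before the position given above for this gene and does not cover its start there. Of the windows of tested genes (11029 genes with 13965 windows), 60.8% held at least 1 GC box. The share was 65.2% among 650 windows of genes that rose and 71.6% among 707 windows of genes that fell. The CCAAT box (CCAAT on either strand), the motif of another general promoter factor, was found in 37.8% of the windows of tested genes, in 45.8% of windows of genes that rose and 29.1% of those that fell. Over all 32851 windows of the reference the shares were 35.7% for the GC box and 37.4% for the CCAAT box. The shares are descriptions of letters in these windows, and no binding was measured.

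Among the Sp and Klf factors, 2 of 23 tested genes rose (8.70%, against 4.70% of all genes tested) and 3 fell (13.0%, against 4.97%). Sp4 (chromosome 12, 118234933 to 118301440), a relative of Sp1 that is best known from neurons, had 1.73 and 1.77 FPKM in WT and 8.99 and 12.8 FPKM in Sp1ΔDBD/ΔDBD HE2 cells. This was a log2 fold change of 2.55 (SE 0.23, limma adjusted p = 6.88e-07), with both mutant samples far above WT. Sp3 had 37.7 and 30.9 FPKM in WT and 43.5 and 52.7 FPKM in mutant cells, without overlap, but the difference of 0.49 on the log2 scale did not pass the test (SE 0.19, limma adjusted p = 0.107). On the per length scale of FPKM, Sp3 was higher than Sp1 and Sp4 in both mutant samples, and also in both WT samples. Klf8 had a log2 fold change of 1.02 (limma adjusted p = 0.0439), Klf4 of -1.23 (0.0182) and Klf9 of -0.69 (0.0350). None of these 3 was called in each fit that left out a sample: the limma adjusted p was 0.388 for Klf8 without Sp1ΔDBD/ΔDBD replicate 2, 0.194 for Klf4 without WT replicate 2 and 0.217 for Klf9 without Sp1ΔDBD/ΔDBD replicate 2. Klf2 and Klf6, factors of endothelial cells, had log2 fold changes of -0.77 and -0.86 that did not pass the test (limma adjusted p = 0.368 and 0.0755). Klf1, the erythroid factor, had 3.96 and 0.591 FPKM in WT and 2.59 and 1.06 FPKM in mutant cells, which overlapped.

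The transcription factors of blood formation were mostly not called. Of 36 tested, 0 rose and 2 fell by limma (4 and 3 at an unadjusted p under 0.05), with a median log2 fold change of 0.17. The falls were 5.56% of the list, against 4.97% of all genes tested. The 2 genes were Meis1, a homeobox partner of Hox proteins (25.1 and 20.9 against 12.3 and 10.1 FPKM, limma adjusted p = 0.0326), and Mycn (37.5 and 33.3 against 27.2 and 18.8 FPKM, 0.0190). Neither was called without WT replicate 1 (limma adjusted p = 0.183 and 0.136) or without Sp1ΔDBD/ΔDBD replicate 2 (0.223 and 0.298), and Meis1 also not without WT replicate 2 (0.0652). Meis1 lies on chromosome 11, described below, and its limma adjusted p was 0.180 with the median of each chromosome removed. Runx1, Tal1 and Gata1 are named although their values had been seen. Runx1, which directs the transition to blood, had 24.6 and 9.80 FPKM in WT and 9.94 and 40.1 FPKM in mutant cells, so that its duplicates differed more than the genotypes. Tal1 had 52.4 and 66.3 against 57.4 and 71.7 FPKM, and Gata1, the factor of red cells and megakaryocytes, 6.30 and 2.01 against 4.59 and 4.55 FPKM.

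Of 39 endothelial genes, markers of one of the cell types that the HE2 gate could hold, 2 rose and 2 fell (3 and 9 at an unadjusted p under 0.05). The called rises and falls were 5.13% each, near the 4.70% and 4.97% of all genes tested. The median log2 fold change of the list was -0.31, with 9 of the 39 genes above 0, and it had 7 lower calls without Sp1ΔDBD/ΔDBD replicate 1 and 1 without any other single sample. Lyve1, a hyaluronan receptor of lymphatic, yolk sac and other early endothelium, fell from 47.3 and 33.2 to 3.59 and 2.87 FPKM (log2 fold change -3.58, SE 0.31, limma adjusted p = 4.62e-07). The summed level of the list was 1780 and 2375 FPKM in WT and 1707 and 1312 FPKM in mutant samples, so that the lowest WT value was only slightly above the highest mutant value, and 0 of the 39 genes were below 0.5 FPKM in all 4 samples. The other 3 endothelial calls, Vwf and Stab1 upwards and Nrp2 downwards, were lost without 1 of the samples: Vwf had a limma adjusted p of 0.198 without WT replicate 1, Stab1 of 0.245 without Sp1ΔDBD/ΔDBD replicate 1 and Nrp2 of 0.458 without Sp1ΔDBD/ΔDBD replicate 2. Of 34 erythroid genes 3 rose (8.82%, against 4.70% of all genes tested) and 0 fell (5 and 2 at an unadjusted p under 0.05). Each of the 3 was lost in at least 1 fit without a sample. The limma adjusted p reached 0.0891 for Epb42 without Sp1ΔDBD/ΔDBD replicate 2 and 0.273 for Trim10 without WT replicate 2. The summed erythroid level was 1342 and 829 FPKM in WT and 938 and 813 FPKM in mutant samples, which overlapped.

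Of 40 megakaryocyte genes 4 rose (10%, against 4.70% of all genes tested) and 5 fell (12.5%, against 4.97%). At an unadjusted p under 0.05 the numbers were 7 and 9. Stxbp2, which acts in granule secretion of platelets, fell from 33.9 and 34.4 to 7.01 and 3.42 FPKM (log2 fold change -2.78, SE 0.36, limma adjusted p = 6.69e-05). Trpc6, a cation channel, rose from 1.85 and 2.05 to 6.69 and 7.92 FPKM (limma adjusted p = 0.00372). These were the members called in each fit that left out 1 sample, and the list had 1 higher and 1 lower call without WT replicate 1, 3 lower calls without WT replicate 2, and 1 and 2 without Sp1ΔDBD/ΔDBD replicate 2. Of 47 myeloid and leukocyte genes 0 rose and 4 fell (5 and 7 at an unadjusted p under 0.05). The called falls were 8.51%, against 4.97% of all genes tested. Ptpn6, the phosphatase SHP-1 of blood cells, fell from 14.0 and 19.2 to 6.28 and 5.79 FPKM (log2 fold change -1.43, SE 0.22, limma adjusted p = 0.000427). The list had 2 lower calls without Sp1ΔDBD/ΔDBD replicate 2. The summed level of this list was 411 and 484 FPKM in WT and 426 and 422 FPKM in mutant samples, and 10 of its genes, Ptprc, Itgam and Prtn3 among them, were below 0.5 FPKM in all 4. Of the lists for cells that the gate should not hold, 19 epithelial and 31 mesenchymal and muscle genes gave 0 calls by limma and 0 at an unadjusted p under 0.05. The epithelial genes summed to 285 and 56.3 FPKM in WT and 171 and 34.2 FPKM in mutant samples, higher in replicate 1 of both genotypes. The mesenchymal and muscle genes summed to 1145 and 721 FPKM in WT and 1004 and 775 FPKM in mutant samples. The part of such cells in the results was not tested.

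Genes of cholesterol and fatty acid synthesis rose. Of 32 tested, 14 rose (43.8%, against 4.70% of all genes tested) and 1 fell, and the median log2 fold change was 0.45 against 0.04 for all genes. Hmgcs1, which makes the precursor of mevalonate, had 91.2 and 74.3 FPKM in WT and 191 and 182 FPKM in mutant cells (log2 fold change 1.18, SE 0.19, limma adjusted p = 0.000427). Lss, which closes the sterol rings, had 9.84 and 9.57 against 30.4 and 19.99 FPKM (log2 fold change 1.34, SE 0.16, limma adjusted p = 2.74e-05). For both genes the mutant samples were well above the WT samples. Idi1 and Sc5d, enzymes of isoprenoid and late sterol synthesis, rose by 1.16 and 0.78 on the log2 scale (limma adjusted p = 0.00153 and 0.00177). The gene that fell was Srebf1, whose protein drives lipid synthesis, with 16.4 and 23.9 against 10.8 and 9.35 FPKM (log2 fold change -0.97, SE 0.16, limma adjusted p = 0.000737). Srebf1 lies on chromosome 11, described below. Of the 14 genes that rose, 6 were called in each fit that left out 1 sample. The list had 10 higher calls without WT replicate 1, 6 without Sp1ΔDBD/ΔDBD replicate 1 and 16 without Sp1ΔDBD/ΔDBD replicate 2, and 2 when the 6 HE2 samples were fitted alone. The GC box was found in 20 of the 27 promoter windows of the list (74.1%, against 60.8% of windows of tested genes and 65.2% for genes that rose). The CCAAT box was also found in 20 of 27 (74.1%, against 37.8% and 45.8%).

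Germline genes also rose, from low levels. The list held 36 genes, of which 29 were tested. Of these, 9 rose (31.0%, against 4.70% of all genes tested) and 0 fell by limma (12 and 0 at an unadjusted p under 0.05). A gene could pass the filter of 1 FPKM through the mutant HE2 samples alone, and genes near 0 FPKM in WT had little room to fall. The share of rises and the lack of falls are therefore partly set by the choice of genes. The median log2 fold change was 0.44. Besides Rhox5 and Stag3, Rnf17, a Tudor domain protein of male germ cells, had 0.0874 and 0.0978 FPKM in WT and 2.22 and 2.61 FPKM in mutant cells (log2 fold change 3.70, SE 0.42, limma adjusted p = 1.31e-05). Tex19.1 rose from 0.132 and 0.110 to 1.76 and 1.498 FPKM (limma adjusted p = 0.000632). Ddx4, the Vasa helicase, had the lowest value and 0.0694 FPKM in WT and 1.39 and 1.12 FPKM in mutant cells, and Tex11, a meiotic gene on the X chromosome, went from the lowest value in both WT samples to 0.741 and 0.844 FPKM. Each mutant value was thus above each WT value, although these levels remained under 3 FPKM. Of the 9 genes, 6 were called in each fit without 1 sample. Of 39 genes of DNA methylation and Polycomb, 5 rose (12.8%) and 0 fell by limma (10 and 0 at an unadjusted p under 0.05). Of these only Cbx7 was called in each fit without 1 sample. The remaining 4 (Cbx2, Kdm2b, Phc1 and Ring1) rose by at most 0.90 on the log2 scale and had limma adjusted p-values of up to 0.235, 0.290, 0.387 and 0.285 without 1 sample, and the list had 1 call without WT replicate 1 and 2 without Sp1ΔDBD/ΔDBD replicate 2.

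Falls were more frequent than in the background in lists of detoxification, lysosome and interferon response. Of 35 genes of glutathione metabolism 6 fell (17.1%, against 4.97% of all genes tested) and 1 rose. Next to Gstk1, Gsto1, an omega class transferase, fell from 50.7 and 47.7 to 21.1 and 12.3 FPKM (log2 fold change -1.60, SE 0.25, limma adjusted p = 0.000327). These were the 2 members called in each fit without 1 sample, and the list had 2 lower calls without Sp1ΔDBD/ΔDBD replicate 2 and 3 without WT replicate 1. Of 47 lysosomal genes 7 fell (14.9%) and 1 rose (2.13%). Ctsz, a cathepsin, fell from 24.8 and 15.7 to 1.89 and 1.23 FPKM (log2 fold change -3.61, SE 0.34, limma adjusted p = 1.16e-06), and Hyal1, a hyaluronidase, from 3.92 and 3.96 to 0.922 and 0.757 FPKM (limma adjusted p = 0.000338). Without WT replicate 1 or Sp1ΔDBD/ΔDBD replicate 2 this list had 3 lower calls, and without WT replicate 2 it had 4. Of 34 genes of interferon response and antigen presentation 6 fell (17.6%) and 0 rose by limma (7 and 1 at an unadjusted p under 0.05). Ifi35, an interferon-induced gene, fell from 10.7 and 6.82 to 1.59 and 1.51 FPKM (log2 fold change -2.39, SE 0.30, limma adjusted p = 3.44e-05). Tap1, a peptide transporter for antigen presentation, fell from 3.62 and 3.63 to 0.957 and 0.696 FPKM (limma adjusted p = 0.000641). Ifitm2 and Ifitm3, membrane proteins that restrict virus entry, fell by 1.12 and 1.34 on the log2 scale (limma adjusted p = 0.000861 and 0.00118). The 2 members that were lost in at least 1 fit without a sample were Trim25 and H2-D1 (highest limma adjusted p 0.235 and 0.347), and 2 of the 6, Ifi35 and Trim25, lie on chromosome 11.

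Of 30 p53 targets and inhibitors of cyclin-dependent kinases 5 fell (16.7%, against 4.97% of all genes tested) and 1 rose (3.33%, against 4.70%). Cdkn1a, the cell cycle inhibitor p21, fell from 35.5 and 32.5 to 17.4 and 14.0 FPKM (log2 fold change -1.12, SE 0.20, limma adjusted p = 0.00118), and was the member called in each fit without 1 sample. The list had 1 lower call without WT replicate 1 or Sp1ΔDBD/ΔDBD replicate 2 and 2 without WT replicate 2. Of 49 genes of the actin and LIM list 4 fell (8.16%) and 0 rose by limma (13 and 0 at an unadjusted p under 0.05). Among them S100a6, a calcium-binding protein, fell from 70.3 and 42.5 to 4.83 and 1.59 FPKM (log2 fold change -4.25, SE 0.69, limma adjusted p = 0.000611). This list held 12 lower calls without Sp1ΔDBD/ΔDBD replicate 1 and 1 without Sp1ΔDBD/ΔDBD replicate 2. Of 29 Notch pathway genes 3 fell (10.3%) and 0 rose (6 and 2 at an unadjusted p under 0.05). Of 39 genes of BMP and TGF-beta signalling 3 fell (7.69%) and 1 rose (2.56%), and of 31 JAK-STAT genes 2 fell (6.45%) and 1 rose (3.23%). Ifnar2, a subunit of the interferon receptor, fell from 14.4 and 14.5 to 6.71 and 2.93 FPKM (limma adjusted p = 0.00114) and was the only gene of these 3 lists called in each fit that left out a sample. Without Sp1ΔDBD/ΔDBD replicate 2 the Notch and BMP lists had 0 lower calls and the JAK-STAT list 1, without Sp1ΔDBD/ΔDBD replicate 1 the BMP list had 7, and without WT replicate 1 it had 0. Of 45 DNA replication genes 2 rose (4.44%) and 1 fell (2.22%). The gene that fell, Tk1, lies on chromosome 11 and was not called with the median of each chromosome removed. Of 85 ribosomal protein genes 1 rose (1.18%) and 4 fell (4.71%), and all 4 that fell (Rpl26, Rpl19, Rpl38 and Rpl23) lie on chromosome 11. None of these calls was made in each of the 4 fits without 1 sample. The list had no call by limma without WT replicate 1, without Sp1ΔDBD/ΔDBD replicate 2 or with the median of each chromosome removed, which left limma adjusted p-values of 0.0518 for Rpl26, 0.465 for Rpl19, 0.846 for Rpl38 and 0.941 for Rpl23 and turned the log2 fold change of Rpl23 to 0.024. Rpl26 matches another annotated gene over 66.7% of its transcript (98.2% identity), so its value is uncertain. Clustered histone genes (69 tested) gave 0 calls by limma, and 2 falls at an unadjusted p under 0.05.

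In the remaining lists the calls were few. Their shares stand beside the 4.70% of all genes tested that rose and the 4.97% that fell. Of 91 nuclear genes of the respiratory chain 0 rose and 5 fell (5.49%) by limma (2 and 14 at an unadjusted p under 0.05). Among them Cox6b2, a testis form of a cytochrome oxidase subunit, went from a mean of 9.60 to 1.92 FPKM (log2 fold change -2.17, SE 0.36, limma adjusted p = 0.000707). Of 34 genes of glycolysis and hypoxia 3 rose and 3 fell (8.82% each), and Pgam1, a glycolytic mutase, rose from a mean of 77.4 to 132 FPKM (limma adjusted p = 0.00186). Of 30 stress response genes 1 rose and 1 fell (3.33% each), the former being Slc7a5, a transporter of large neutral amino acids (mean 13.2 to 26.9 FPKM, limma adjusted p = 0.00165). The gene that fell, Xbp1, lies on chromosome 11 and had a limma adjusted p of 0.352 with the median of each chromosome removed. Cox6b2, Pgam1 and Slc7a5 were each called in the 4 fits without 1 sample, and no other gene of these 3 lists was. Of 26 immediate early genes 0 rose and 2 fell, 7.69% (0 and 8 at an unadjusted p under 0.05). Of 22 genes of haem and iron 1 rose (4.55%) and 2 fell (9.09%), and of 27 growth factor genes 1 rose and 1 fell (3.70% each). Of 20 pluripotency genes 2 rose (10%) and 1 fell (5%). Of the 20, 10 genes, Nanog, Sox2 and Esrrb among them, were below 0.5 FPKM in all 4 samples. The summed level of all 20 was 104 and 104 FPKM in WT and 156 and 141 FPKM in mutant samples. The part of residual pluripotent cells in the results was not tested. Of 108 small nucleolar RNA genes 7 rose (6.48%) and 2 fell (1.85%), and of 15 genes of RNA polymerase III transcripts 0 rose and 0 fell by limma (0 and 1 at an unadjusted p under 0.05). No gene of these lists kept its call in each of the 4 fits without 1 sample.

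**Figure D3:**
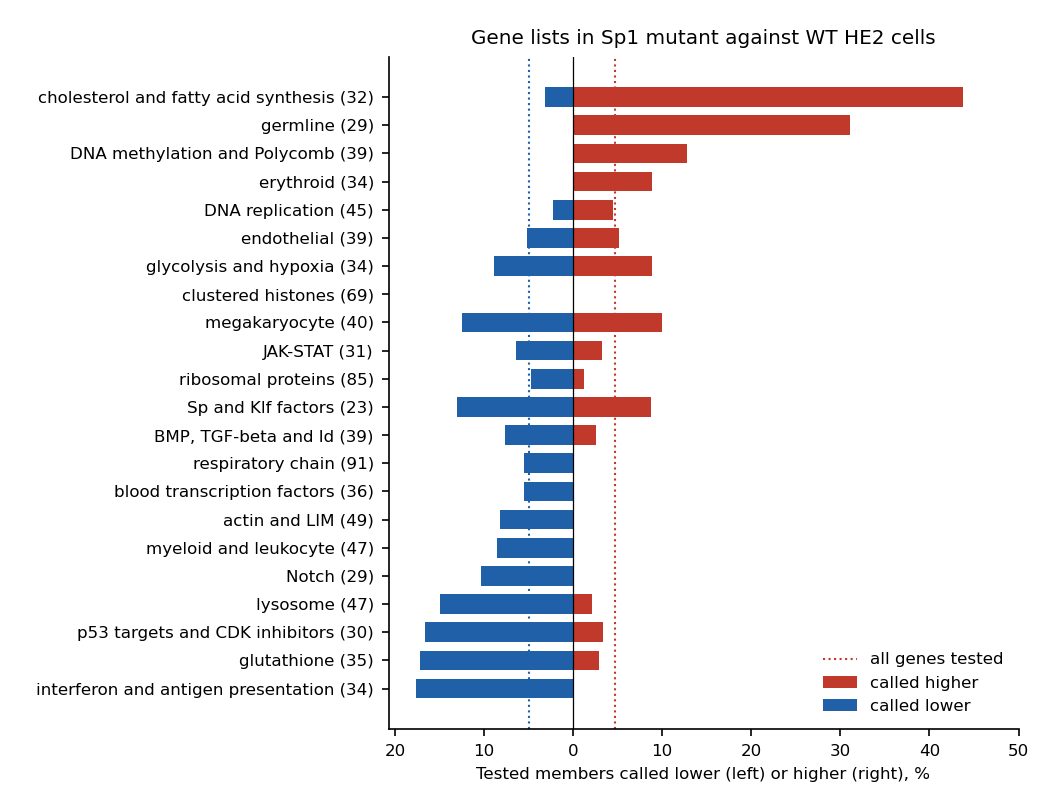
Share of the tested members of each gene list that limma called lower (blue, to the left) or higher (red, to the right) in Sp1ΔDBD/ΔDBD against WT HE2 cells, with the number tested in parentheses. Dotted lines mark the shares of all genes tested, 4.97% lower and 4.70% higher. The list of cholesterol and fatty acid synthesis reaches 43.8% and the germline list 31.0% on the higher side, and the interferon and glutathione lists 17.6% and 17.1% on the lower side.

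Genes of chromosome 11 were lower as a group. Of its 1205 tested genes 8 rose and 209 fell (0.664% and 17.3%), and the median log2 fold change was -0.31, against 0.06 over the genes of the other chromosomes. On these, the medians lay between 0.02 and 0.17. Without chromosome 11, 675 genes rose and 513 fell in HE2 cells, so that the larger group was then that of the rises. Rises were also more numerous without WT replicate 2 (576 and 511) and after correcting for length and GC content (959 and 876). Most of its falls were small: 140 of the 209 were by less than 1 on the log2 scale. The median of chromosome 11 was also negative for Sp1ΔDBD/ΔDBD against WT cells in ESC (-0.20), Flk1 (-0.12), HE1 (-0.29) and progenitor cells (-0.34). In HE2 cells of the Sp3 knockout it was -0.26 against the same WT samples, and directly between both mutants -0.11. DNA copy number was not measured, and its part in these values was not tested. When the median of each chromosome was removed, limma called 489 genes higher and 635 lower. Of the 15 largest falls and 15 largest rises, only Selenom lies on chromosome 11.

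**Figure D4:**
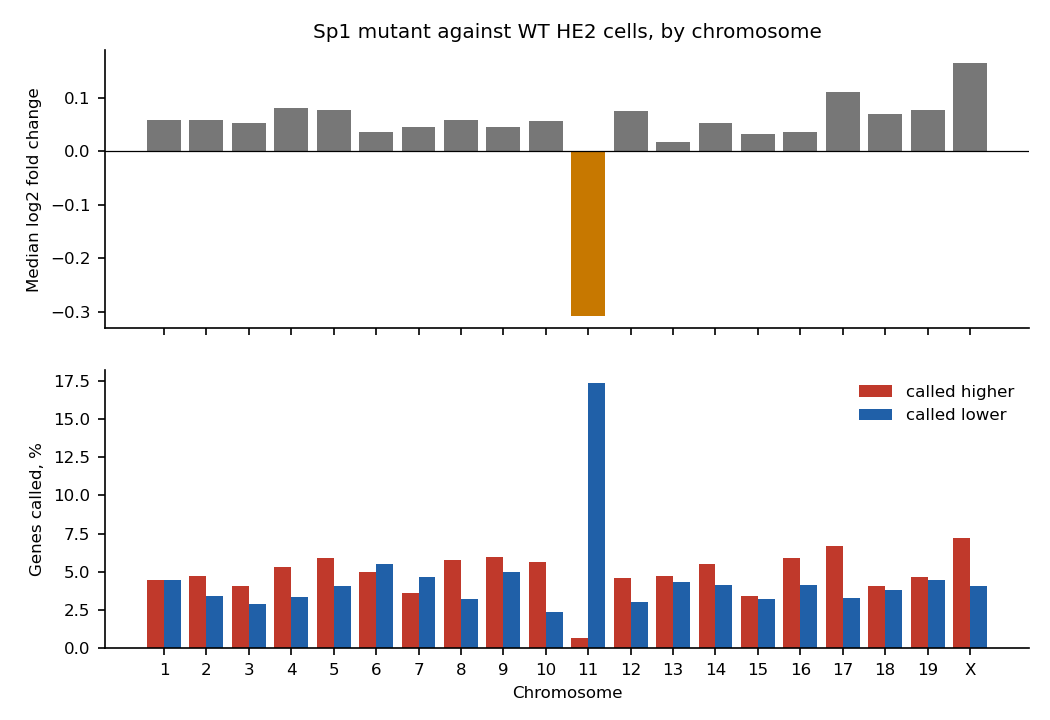
Median log2 fold change of the tested genes of each chromosome (top), and the share of these genes called higher (red) or lower (blue) by limma (bottom), for Sp1ΔDBD/ΔDBD against WT HE2 cells. Chromosome 11 stands apart with a median of -0.31 and 17.3% of its genes lower.

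HE2 lies between HE1 and progenitor cells in this culture, and genes that change between the latter in WT cells were examined in HE2. They were chosen in the WT samples of HE1 and progenitor cells, which do not enter the HE2 means but share the estimate of the spread in limma. These samples deviate together with the same-numbered WT HE2 samples (correlations given below), so the choice is not independent of the comparison. Of 696 genes that were at least 4-fold lower in WT progenitors than in WT HE1 cells, 62 fell (8.91%) and 11 rose (1.58%) in Sp1ΔDBD/ΔDBD HE2 cells. Of all genes tested 4.97% fell and 4.70% rose. The median log2 fold change of the 696 genes was -0.31, against 0.04 for all genes tested. Of 320 genes at least 4-fold higher in progenitors, 24 rose (7.50%, against 4.70%) and 18 fell (5.62%, against 4.97%), with a median of 0.02.

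The changes were set beside those of the mutant in the other populations, each against its own WT samples. Of the 683 genes that rose in HE2, 394 (57.7%) also rose in HE1, where 826 genes rose (5.69% of the genes tested), and 279 (40.8%) in progenitors, where 544 did (3.75%). Of the 722 that fell, 394 (54.6%) also fell in HE1, with 632 falls (4.35%), and 382 (52.9%) in progenitors, with 732 (5.04%). The shared genes made up 47.7% and 51.3% of the rises, and 62.3% and 52.2% of the falls, of HE1 and progenitors. In Flk1 cells, 424 genes rose (2.92%) and 380 fell (2.62%). Of these 97 and 162 were shared with HE2, that is 14.2% and 22.4% of the HE2 genes and 22.9% and 42.6% of those in Flk1. In ESC, 407 rose (2.80%) and 473 fell (3.26%), and 87 and 143 were shared, 12.7% and 19.8% of the HE2 genes and 21.4% and 30.2% of those in ESC. Same-numbered samples of HE1, HE2 and progenitors deviated together from their group means (correlations across 10052 genes of 0.382 and 0.458 in WT and 0.649 and 0.544 in Sp1ΔDBD/ΔDBD cells, for HE1 and progenitors), so these populations are not independent repeats of the comparison.

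**Figure D5:**
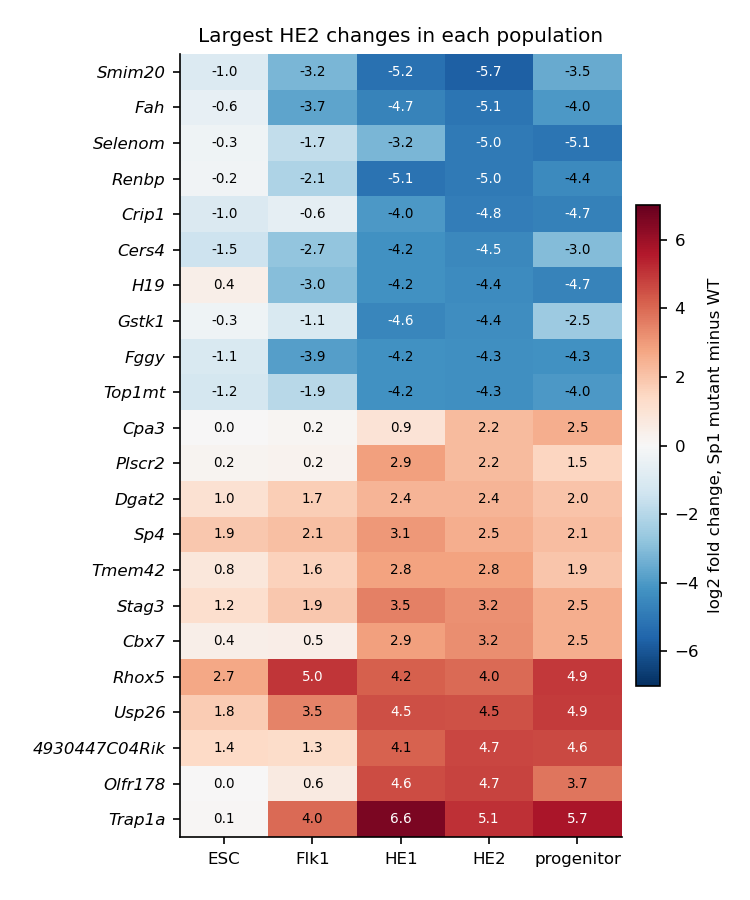
Log2 fold change of Sp1ΔDBD/ΔDBD against WT cells in each of the 5 populations, for genes among the largest changes in HE2 that have no near-identical copy and were not at the lowest value throughout in mutant HE2 cells. Rhox5 (2.69 in ESC) and Sp4 (1.87) are red in each population, while H19 (0.42), Cbx7 (0.39) and Renbp (-0.24) are pale in ESC and strongly coloured in HE1, HE2 and progenitor cells.

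Whether the effect of the mutation differed between HE2 and another population was tested directly as an interaction in the same fit. Between HE2 and HE1 it differed for 1 gene (0.00688% of the genes tested), Ccdc178, and between HE2 and progenitors for 3 (0.0207%), Mgmt, Lyve1 and Serpina3b. Without 1 HE2 sample the limma adjusted p rose to up to 0.144 for Ccdc178 and to up to 0.235 for Serpina3b. At an unadjusted p under 0.05 there were 478 and 751 of the 14525 genes tested. Without any difference in effect, a share of about 0.05 would fall under this threshold. Lyve1, which fell in HE2, had 1.49 and 3.27 FPKM in WT progenitors and 1.82 and 1.62 FPKM in mutant progenitors, which overlapped. The difference between the effects was -3.23 (SE 0.44, limma adjusted p = 0.00429). Mgmt had 10.2 and 11.8 FPKM in WT progenitors and 1.22 and 0.779 FPKM in mutant progenitors, above the lowest value seen in HE2. Between HE2 and Flk1 the effect differed for 207 genes (1.43%), and between HE2 and ESC for 380 (2.62%). Cbx7 had 35.5 and 37.6 FPKM in WT and 49.6 and 46.4 FPKM in mutant ESC, a log2 fold change of 0.39 (limma adjusted p = 0.337), and the difference of the HE2 effect from it was 2.85 (SE 0.30, limma adjusted p = 3.55e-05). In WT cells Cbx7 was thus high in ESC and low in HE2, and in mutant HE2 cells it lay between these levels. Mgmt had 12.7 and 8.23 FPKM in WT ESC and 9.79 and 4.11 FPKM in mutant ESC, which overlapped, and Tmem159 had 2.70 and 1.78 against 1.11 and 0.771 FPKM. The numbers of genes rested on single samples. Without WT replicate 1 there were 0 genes for HE1 by limma (484 at an unadjusted p under 0.05) and 116 for Flk1, without WT replicate 2 there were 93 for Flk1 and 237 for ESC, and without Sp1ΔDBD/ΔDBD replicate 2 there were 11 for progenitors, 87 for Flk1 and 195 for ESC.

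Both mutants were also compared directly in HE2, without the WT samples. Between Sp1ΔDBD/ΔDBD and the Sp3 knockout 2305 genes differed by limma, 15.9% of the genes tested. Mgmt had 9.19 and 10.7 FPKM and Tmem159 4.98 and 6.04 FPKM in the Sp3 knockout, against the lowest value in the Sp1 mutant (limma adjusted p = 4.99e-10 and 3.82e-10). Cers4 had 13.7 and 10.3 FPKM in the Sp3 knockout, close to its WT level, and the difference between the mutants was -4.33 (SE 0.27, limma adjusted p = 8.03e-09). Usp26 was at the lowest value of the column in both samples of the Sp3 knockout (limma adjusted p = 6.50e-08). Rhox5 had 3.91 and 3.71 FPKM and Sp4 1.94 and 2.68 FPKM in the Sp3 knockout, both below both samples of the Sp1 mutant (limma adjusted p = 7.62e-08 and 5.14e-06). In contrast, Lyve1 had 2.78 and 2.99 FPKM in the Sp3 knockout and 3.59 and 2.87 FPKM in the Sp1 mutant, which overlapped (difference 0.15, SE 0.31, limma adjusted p = 0.812). Sp3 itself had 4.19 and 3.38 FPKM in its knockout. The number of genes that differed was 983 without Sp1ΔDBD/ΔDBD replicate 2, and 175 when the 6 HE2 samples were fitted alone.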

How the data were processed

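RNA was measured by paired-end sequencing of stranded, ribosomal RNA-depleted total RNA libraries from sorted mouse cells. The authors aligned reads to mm10 with HISAT2 (2.1.0), estimated FPKM with StringTie (1.3.3), removed genes that never exceeded 1 FPKM, and normalised the samples to common quantiles. The deposited FPKM table gives 14685 genes in 30 samples. Quantile normalisation gives each sample the same distribution, so that a change in total RNA cannot be seen, and ties the genes at the lowest value of a column. Depth is unknown and no count test was made.

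From these values, log2(FPKM + 0.1) of genes above 1 FPKM in at least 1 sample was fitted with limma (3.58.1, in R 4.3.3), with 15 group means over 30 samples, an intensity trend and Benjamini-Hochberg adjustment within each contrast. The threshold was 0.05, with 15 residual degrees of freedom, which overstate the information because same-numbered samples of HE1, HE2 and progenitors deviate together. The fold change rule (above 2, as in the study, with a minimum of 3 FPKM added here) used group means without a test. By symbol, 14554 genes were matched to the GENCODE annotation of GRCm38, and promoters to RefSeq (GRCm38.p6). Named were the 15 largest falls and rises with a mean above 3 FPKM in 1 genotype, genes off in 1 genotype, called members of the gene lists, the sort markers and Sp factors. The comparison, the genes and the lists were chosen with earlier results of these data known. A few results are not reported here. Alternatives were other pseudocounts, filters, sample sets, a replicate block, corrections for GC content and length or chromosome, and leaving out each HE2 sample.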

Additional observations from a re-analysis of the deposited data

Results flagged for a closer look

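The effect of the Sp1 mutation differed between HE2 and another population, by limma's test of the interaction, for the following genes, which are the called genes for HE1 and progenitors and the 5 with the smallest p for Flk1 and for ESC. The value is the log2 fold change of mutant against WT cells in HE2 minus that in the other population.

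Against HE1, the value was 2.92 for Ccdc178 (adjusted p = 0.0400). This gene had 0.0342 and 0.0517 FPKM in WT and 0.791 and 1.23 FPKM in mutant HE2 cells and less than 0.003 FPKM in each HE1 sample, and the adjusted p rose to up to 0.144 without 1 HE2 sample. Against progenitors, the value was -3.85 for Mgmt (adjusted p = 0.00403), -3.23 for Lyve1 (0.00429) and -2.81 for Serpina3b (0.0463). Serpina3b had 0.143 and 0.123 FPKM in WT HE2 cells and the lowest value in both mutants, against 0.405 and 0.715 FPKM in WT and 1.86 and 1.85 FPKM in mutant progenitors, and was not called without any 1 of the HE2 samples (0.0686 to 0.235).

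Against Flk1, the value was -4.29 for Tmem159 (adjusted p = 4.10e-05), 6.17 for Cpne7 (9.10e-05), 2.75 for Cbx7 (9.10e-05), -3.36 for Icam2 (0.000123) and 3.79 for Olfr183 (0.000249). Cpne7 had 0.927 and 0.354 FPKM in WT and 2.69 and 2.82 FPKM in mutant HE2 cells, but 2.33 and 1.71 FPKM in WT and 0.0311 and 0.0136 FPKM in mutant Flk1 cells. Icam2, an endothelial adhesion molecule, had 0.259 and 0.280 FPKM in WT and 3.25 and 3.01 FPKM in mutant Flk1 cells, while its HE2 samples overlapped (28.8 and 25.6 against 29.8 and 17.9 FPKM). Olfr183 was listed at 0 in each Flk1 sample.

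Against ESC, the value was -5.46 for Tmem159 and -6.54 for Mgmt (adjusted p = 4.19e-07 for both), 1.60 for Rcn1 (2.68e-06), 2.85 for Cbx7 and 4.11 for Mt4 (3.55e-05 for both). Rcn1, a calcium-binding protein of the endoplasmic reticulum, had 51.7 and 51.5 against 64.1 and 59.2 FPKM in HE2 and 14.8 and 14.6 against 5.98 and 5.46 FPKM in ESC. Mt4 was at the lowest value of the column in each HE2 sample, and its value comes from ESC, with 2.37 and 1.07 FPKM in WT and 0 in both mutant samples. For Mgmt and Tmem159, at the lowest value in both mutant HE2 samples, these values depend on the pseudocount: the HE2 log2 fold change itself was -7.22 and -6.62 with a pseudocount of 0.1 and -4.001 and -3.44 with a pseudocount of 1.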

How the results depend on the processing

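Depth is unknown and 2 samples per group limit each value. Against 683 genes higher and 722 lower, limma called 50 and 125 with the 6 HE2 samples, 0 and 0 with the 4 samples alone, and 323 and 469 with the 18 HE1, HE2 and progenitor samples. Leaving out 1 HE2 sample gave 223 to 749 higher and 310 to 872 lower genes. Of the called genes, 48.6% were higher, and 28.6% with the 6 HE2 samples. The fold change rule, with 588 genes, gave 1423 with no minimum level, 283 with a minimum of 10 FPKM, 256 with all 4 pairs of samples past the fold, and 577 to 978 without 1 sample, and the share of higher genes was 33.0%, and 42.7% with no minimum.

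The interaction with HE1 (1 gene) was called for 2 genes with a pseudocount of 1 or no trend, and for 0 with a mean above 1 FPKM in HE2, the replicate block or 18 samples (321, 590 and 381 at an unadjusted p under 0.05), and for 0 to 1 without 1 sample. That with progenitors (3 genes) gave 6 with no trend or the correction for GC content and length, and 3 to 11 without 1 sample. That with Flk1 (207) gave 87 to 300 and that with ESC (380) 195 to 490 without 1 sample, and ESC 577 with a pseudocount of 1. Against the Sp3 knockout (2305) there were 175 genes with 6 samples, 1435 with 18, 1533 with the correction for GC content and length, and 983 to 2367 without 1 sample. The log2 fold change of Kit lay between -0.82 and 0.11 without 1 sample. That of Itga2b lay between -0.48 and 0.32 without 1 sample (0.05 without Sp1ΔDBD/ΔDBD replicate 1) and was 0.27 with chromosome medians removed. That of Rpl23 was 0.024 with chromosome medians removed. The cause of these changes was not tested beyond what fewer samples or genes bring.

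With the replicate number as a block there were 820 higher and 851 lower genes, and 0, 2, 250, 464 and 2634 genes for HE1, progenitors, Flk1, ESC and the Sp3 knockout. Deviations of same-numbered WT and mutant HE2 samples correlated at 0.267 over 10052 genes with only 2 pairs, and the number was not taken as a pairing.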
